A study of Homo sapiens with 6 samples.

Results

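The genes described here are the nuclear genes for the subunits of the oxidative phosphorylation machinery. They were chosen by symbol alone, as protein-coding genes named NDUFA, NDUFB, NDUFC, NDUFS or NDUFV with a number (complex I), SDHA to SDHD (complex II), UQCR (complex III), COX4 to COX8 (complex IV), or ATP5F, ATP5M and ATP5P (complex V). The rule gave 84 of the 25420 genes in the annotation, with 36 in complex I, 4 in complex II, 9 in complex III, 17 in complex IV and 18 in complex V. Another 191 genes with such symbols were not protein coding and 2 were readthrough genes, and both kinds were left out.

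Oxidative phosphorylation takes place in the inner mitochondrial membrane. Complexes I and II pass electrons from NADH and succinate to ubiquinone, complex III hands them on to cytochrome c, and complex IV transfers them to oxygen, while the protons pumped along the way drive ATP synthesis by complex V. Most subunits are encoded in the nucleus, made in the cytosol and imported, and acute myeloid leukaemia cells are known to rely strongly on this pathway.

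MOLM-13 is an established human acute myeloid leukaemia line that carries a KMT2A fusion and an FLT3 duplication, and the cells came from this 1 line. One group of 3 libraries came from cells given the vehicle DMSO, and the other group of 3 from cells given 10 µM C646, an inhibitor of the acetyltransferases CBP and p300, for 2 h. All 6 samples also received 100 µM 4-thiouridine (4sU) in the last 1 h, and SLAM-seq then reads incorporated 4sU as a T > C conversion. A read with conversions (T > C read) is therefore taken to come from newly synthesized RNA, although some can also arise without label. The comparison asks how inhibition of CBP/p300 changed newly synthesized and total mRNA of the respiratory chain.

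The libraries held 7252597 to 10225448 reads on 3′ UTRs. T > C reads made up 8.74 to 8.86% of them in DMSO and 6.34 to 6.71% in C646, and 49.7 to 51.6% of filtered reads in DMSO and 56.3 to 62.0% in C646 fell on 3′ UTRs. All 10 myeloid and leukaemia markers looked up, CD33, FLT3, SPI1 and LYZ among them, had reads, while 1 of 5 markers of other blood cells had enough reads to be tested in all reads. The labels do not say that the replicates are separate cultures, so that p-values measure only the spread between these samples. Cells without 4sU are not analysed here, and the T > C share that arises without label was therefore not measured.

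Promoter sequences are given first for the subunits at both ends of the results. They are NDUFS8, NDUFV3 and NDUFB10, which had the lowest changes in T > C reads among members with an entry in the promoter table, and ATP5F1C, NDUFB3 and SDHB, the members called higher in all reads. Each window runs from 120 bases before to 30 bases after the RefSeq start (GRCh38.p14), 5′ to 3′ on the strand of the gene, and capitals mark the motifs searched, which were the NRF1 core GCATGCGC, the ETS motif CCGGAAG, the YY1 motif AAGATGG, the E-box CACGTG, the cAMP response element TGACGTCA, the CCAAT box CCAAT and the TATA box TATAAA, all on both strands.
NDUFS8, chr11:68030561-68030710, + strand: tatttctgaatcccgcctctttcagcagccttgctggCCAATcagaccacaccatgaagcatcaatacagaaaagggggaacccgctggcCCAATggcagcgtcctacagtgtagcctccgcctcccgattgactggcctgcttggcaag
NDUFV3, chr21:42893189-42893338, + strand: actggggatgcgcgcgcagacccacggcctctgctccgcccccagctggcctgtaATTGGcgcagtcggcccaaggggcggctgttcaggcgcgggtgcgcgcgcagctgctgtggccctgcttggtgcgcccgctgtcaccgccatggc
NDUFB10, chr16:1959418-1959567, + strand: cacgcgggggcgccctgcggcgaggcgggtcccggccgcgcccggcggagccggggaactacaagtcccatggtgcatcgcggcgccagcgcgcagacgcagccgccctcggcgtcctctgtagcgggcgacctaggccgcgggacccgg
ATP5F1C, chr10:7788057-7788206, + strand: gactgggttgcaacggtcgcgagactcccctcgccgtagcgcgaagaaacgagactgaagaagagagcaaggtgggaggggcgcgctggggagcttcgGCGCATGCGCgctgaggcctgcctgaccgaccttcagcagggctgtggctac
NDUFB3, chr2:201071881-201072030, + strand: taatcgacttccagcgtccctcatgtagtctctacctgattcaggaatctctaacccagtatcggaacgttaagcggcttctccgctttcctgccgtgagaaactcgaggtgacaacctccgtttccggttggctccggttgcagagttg
SDHB, chr1:17054003-17054152, - strand: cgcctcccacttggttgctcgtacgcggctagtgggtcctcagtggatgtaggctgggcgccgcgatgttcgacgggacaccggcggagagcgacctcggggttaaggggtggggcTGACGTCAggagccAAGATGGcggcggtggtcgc

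In these windows NDUFS8 holds a pair of CCAAT boxes and NDUFV3 holds 1 on the reverse strand. The ATP5F1C window holds the NRF1 core on both strands, where the 2 matches overlap. SDHB holds a cAMP response element and a YY1 motif, and the windows of NDUFB10 and NDUFB3 hold none of the 7 motifs. The table lists promoters (250 bases before to 50 after the start) for 68 of the 84 members, all of them identical in the reference genome. The NRF1 core, bound by a regulator of respiratory genes, stood in 13 of the 68 (19.1%), against 6.65% of 6375 promoters of tested genes and 3.27% of all 27305 promoters. The YY1 motif stood in 16 (23.5%, against 9.13% and 6.06%), the ETS motif, which the GABP complex can bind, in 20 (29.4%, against 23.0% and 10.7%), and the cAMP response element in 5 (7.35%, against 3.67% and 1.98%). The CCAAT box stood in 24 (35.3%, against 38.7% and 35.7%), the E-box in 7 (10.3%, against 11.2% and 7.43%) and the TATA box in 7 (10.3%, against 5.35% and 12%). The median log2 fold change of T > C reads was −0.64 in the 11 tested members with the NRF1 core, of which 3 were called lower, and −0.92 in the 48 without it, of which 20 were. With the CCAAT box it was −1.01 in 20 members, 11 of them called lower, and −0.80 in 39 without it, 12 of them called lower. For the TATA box the medians were −1.11 (5 of 6 called lower) and −0.79 (18 of 53), for the cAMP response element −0.51 (2 of 5) and −0.89 (21 of 54), for the YY1 motif −0.98 (6 of 13) and −0.84 (17 of 46), for the ETS motif −0.86 (7 of 18) and −0.88 (16 of 41), and for the E-box −0.89 (2 of 6) and −0.88 (21 of 53). Over all tested genes the median was −0.83 and 33% were called lower. A match describes letters only, and binding was not measured.

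Reads were sufficient to test 72 members in T > C reads and 75 in all reads. NDUFA3, NDUFA6, COX4I2, COX6A2, COX7A1, COX7B2 and COX8C were listed at 0 in every library. The 5 COX genes among them are isoforms of complex IV subunits known from muscle, lung or testis. NDUFA3 and NDUFA6 were at 0 over all of their UTR entries (10 and 4). Whether these 2 genes were silent or their reads were missed was not tested. NDUFS1, the largest core subunit of complex I, had 1 read in all libraries together, and COX6B2 had at most 3 in any library. NDUFS7, NDUFB7 and ATP5MGL passed the filter on low counts in all reads only.

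Subunit mRNAs had many reads and a low share of T > C reads in DMSO. The tested members had a median of 2430 reads per library, against 344 over all tested genes, and all members together took 3.36% ± 0.141 (SD, n = 3) of the reads on 3′ UTRs but 1.85% ± 0.0966 of the T > C reads. The median share of T > C reads in DMSO was 4.36% over the members and 13.4% over all tested genes. In all, 68 of the 72 members lay below the median of the tested genes and 43 lay in the lowest 10 percent. Reads of the members covered fewer T positions (median 27.0 per read, against 31.6), and across the 72 members, which share the same libraries, the share and the covered T positions had a Pearson's r of 0.21 and a Spearman's rho of 0.41. Counted per covered T, conversions reached a median of 0.285% in the members and 0.911% over all tested genes, and 68 members again lay below the median of the tested genes. By the share over the summed DMSO reads, 4 members were not below the median. Their means over the libraries were led by ATP5F1C, the rotating γ subunit of complex V, with 39.8% ± 2.74, and the others were SDHD, a membrane anchor of complex II, with 16.6% ± 7.57, UQCR11 of complex III with 16.1% ± 3.77 and NDUFV3 of complex I with 13.3% ± 0.665. Per covered T the 4 were ATP5F1C, SDHD, NDUFB3 and NDUFV3. The lowest shares were those of NDUFA11 with 1.12%, NDUFA13 with 1.56% and ATP5F1D with 1.70%.

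**Figure D1:**
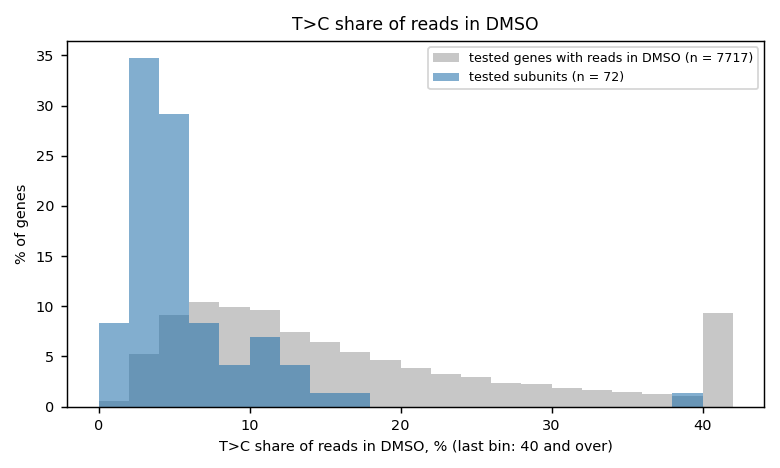
Histogram of the share of reads with T > C conversions in DMSO (x axis, % of the reads of a gene summed over 3 libraries, in bins of 2 percentage points, with shares of 40% and over in the last bin) for 72 tested subunits (blue) and 7717 tested genes with reads in DMSO (grey), as % of genes (y axis). The subunits gather in the bins below 6%, and 1 subunit, ATP5F1C, stands near 40%.

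Values from bulk RNA cannot tell fewer cells from less RNA per cell. In T > C reads, 25 of the 72 tested members (34.7%) were called lower in C646 and 0 were called higher, and DESeq2 gave the same counts, though without SDHA among them. A call required an adjusted p of at most 0.01 in edgeR's quasi-likelihood test over all tested genes and a log2 fold change of 1 or more in size. Over all 7722 tested genes, 33% were called lower and 2.97% higher, so that the share of members called lower was close to the background. With T > C reads scaled by TMM on themselves, 7 members were called lower and 3 higher, against 7.6% and 9.14% of 7847 tested genes. The median log2 fold change was −0.80 over the members and −0.83 over all tested genes, and 65 members lay below 0, whereas TMM applied to T > C reads moved the median of all tested genes to 0.01 and that of the members to 0.04, with 34 members below 0. Relative to all tested genes the members thus stood 0.02 higher with the former and 0.03 higher with the latter scaling. At an adjusted p of at most 0.05 with no fold limit, 49 members (68.1%) were lower, against 50.1% of tested genes, and 1 (1.39%) was higher, against 5.24%. The 3 C646 libraries lay below the 3 DMSO libraries in 53 members, above them in ATP5F1C, and overlapped with them in 18. Overlap was not counted over all tested genes, but 82.9% of these had a log2 fold change below 0, against 90.3% of the members.

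**Figure D2:**
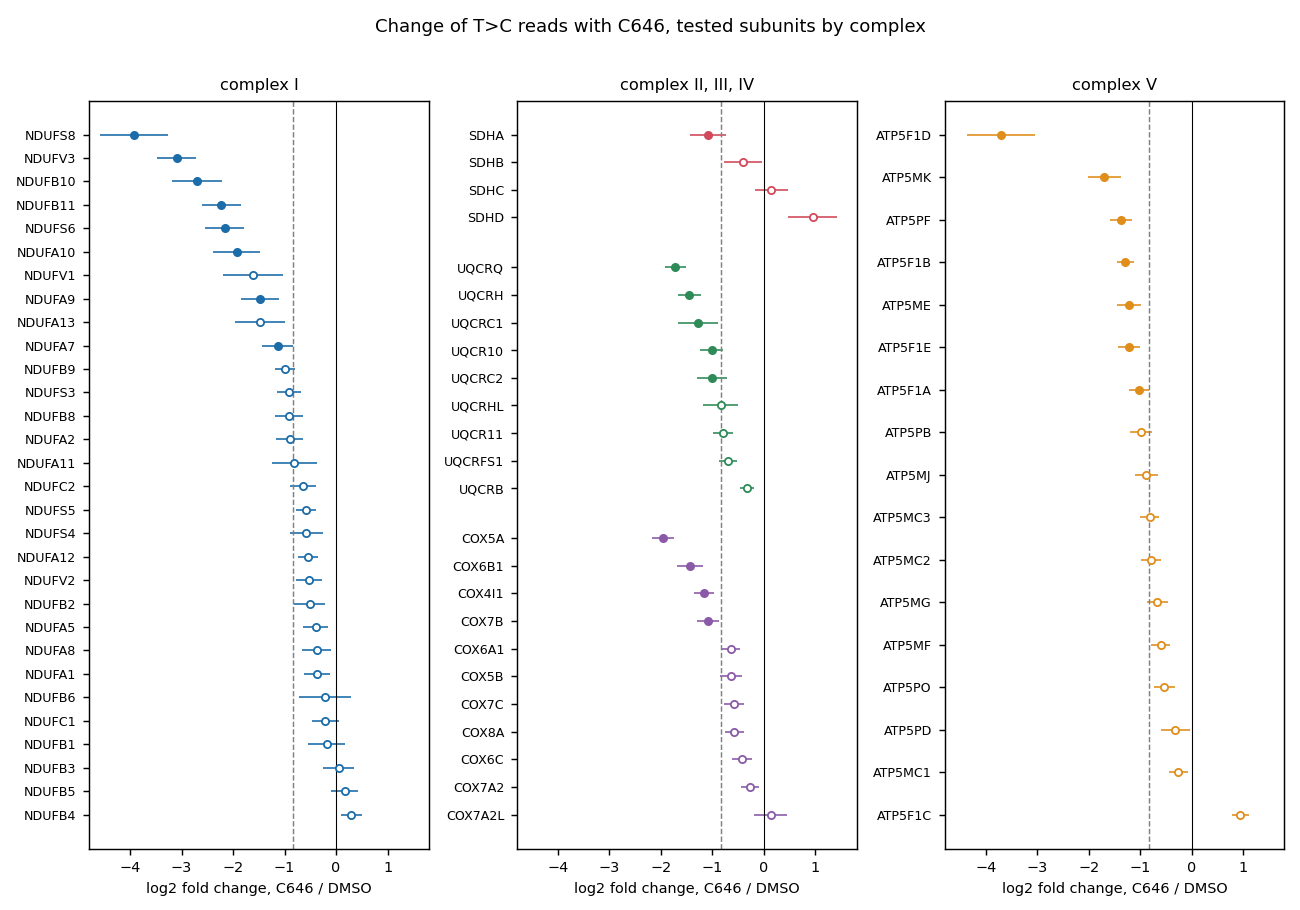
Log2 fold change of T > C reads (x axis, C646 over DMSO, 3 libraries each) of the tested subunits (y axis, 1 member not shown), by complex, with bars for the standard error. Filled points were called lower, open points were not called, the dashed line is the median of all tested genes (−0.83) and the solid line is 0; the changes run from −3.92 in NDUFS8 to 0.95 in ATP5F1C, and with TMM applied to T > C reads the dashed line moves to 0.01.

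In complex I, 8 of 31 tested subunits were called lower, and the median log2 fold change was −0.65 (0.18 with TMM applied to T > C reads), against 33% and −0.83 over all tested genes. NDUFS8, a core subunit that carries iron-sulfur clusters, had 3.16, 7.07 and 2.83 T > C CPM (T > C reads scaled by the total of all reads of the library) in DMSO and 0.529, 0 and 0.298 in C646. Every C646 library lay far below every DMSO library, on 30, 51 and 21 T > C reads in DMSO and 4, 0 and 3 in C646. Its log2 fold change was −3.92 ± 0.66 (SE; adjusted p = 1.33e-05, edgeR), or −4.605 without C646 replicate 1, and its T > C reads of 0 in C646 replicate 2 among 918 reads allow a share of up to 0.327%. The 3′ UTR of NDUFS8 (chr11:68036594-68036647, + strand) offers few T positions, 3.56 per read, and conversions per covered T were 0.242% in DMSO.

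NDUFV3, an accessory subunit of the NADH-binding module, had 11.5, 7.90 and 11.3 T > C CPM in DMSO and 1.72, 1.35 and 0.595 in C646. The groups were well apart, with a log2 fold change of −3.10 ± 0.37 (adjusted p = 6.10e-08, edgeR). NDUFB10, an accessory subunit of the membrane arm, had 4.85, 5.13 and 5.12 in DMSO and 0.265, 0.735 and 1.19 in C646. Its DMSO values were nearly equal, and the log2 fold change was −2.71 ± 0.49. The further called subunits, all accessory, were NDUFB11 (−2.23), NDUFS6 (−2.17), NDUFA10 (−1.93), NDUFA9 (−1.48) and NDUFA7 (−1.14), and the call of NDUFA9 was lost without DMSO replicate 2 (adjusted p = 0.0146) and with TMM of T > C reads (−0.65). NDUFB11, NDUFS6, NDUFA10 and NDUFA7 were not followed through the alternatives.

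Among the core subunits of complex I, 1 of 5 tested, NDUFS8, was called, against 33% of all tested genes called lower. NDUFV1, which binds NADH and FMN, had 2.11, 1.94 and 2.15 T > C CPM in DMSO and 1.06, 0.368 and 0.595 in C646. Its groups did not overlap and its log2 fold change was −1.62 ± 0.58, but the adjusted p of 0.0195 (edgeR) missed the threshold. NDUFS3 had −0.92, but 99.9% of its reads also mapped elsewhere, so that its value is uncertain. At the upper end stood NDUFB5 with 0.16 ± 0.26 and NDUFB4 with 0.30 ± 0.21, neither of which passed the test, although NDUFB4 was called higher (1.14) with TMM applied to T > C reads.

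In complex II, succinate dehydrogenase, the 4 subunits went different ways in T > C reads, with a median of −0.13 that turned to 0.69 with TMM applied to T > C reads, 0.08 with scaling by all filtered reads and 0.27 without SDHA and SDHC, whose reads are partly shared. It was also above 0 without C646 replicate 2 (0.018) or DMSO replicate 3 (0.019). SDHA, the flavoprotein that oxidizes succinate, had 7.38, 5.96 and 6.19 T > C CPM in DMSO and 4.63, 2.21 and 2.48 in C646. The groups did not overlap and the log2 fold change was −1.08 ± 0.34 (adjusted p = 0.00889, edgeR). This call was lost without any of the libraries but C646 replicate 1 (log2 fold changes −0.90 to −1.14), in DESeq2 (adjusted p = 0.0125), with all filtered reads as library size (−0.89) and with TMM of T > C reads (−0.25), and 52.7% of the reads of SDHA also mapped elsewhere. SDHB, the iron-sulfur subunit, had −0.41 ± 0.37, and the membrane anchors SDHC and SDHD had 0.14 ± 0.32 and 0.94 ± 0.48, and none of these 3 passed the test.

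In complex III all 9 subunits had a log2 fold change below 0 in T > C reads, with a median of −1.01 (−0.18 with TMM applied to T > C reads, where UQCRB and UQCRFS1 were among those above 0), and 5 were called lower, against 33% and a median of −0.83 over all tested genes. UQCRQ, a small subunit next to cytochrome b, had 37.5, 37.7 and 26.8 T > C CPM in DMSO and 11.9, 9.44 and 9.62 in C646. The ranges were wide apart and the log2 fold change was −1.72 ± 0.20 (adjusted p = 4.80e-08, edgeR). UQCRH, the hinge protein that helps cytochrome c to dock, had 22.8, 22.5 and 29.5 in DMSO and 10.8, 9.44 and 7.24 in C646, again without overlap, with −1.45 ± 0.22. UQCRC1, a core protein, had −1.27 ± 0.39, a call that was lost without C646 replicate 2, DMSO replicate 1 or DMSO replicate 2 (adjusted p = 0.0415, 0.0264 and 0.0757), with all filtered reads as library size (adjusted p = 0.0283) and with TMM of T > C reads (−0.45), which also ended the calls of UQCRQ (−0.89) and UQCRH (−0.61). UQCR10 (−1.02) and UQCRC2 (−1.01) were called as well, but 99.8% of the reads of UQCRC2 also mapped elsewhere. These calls were not followed through the alternatives. UQCRFS1, the Rieske iron-sulfur protein, had −0.70 ± 0.18 with 43.2% of its reads shared. UQCRB, a subunit that helps form the ubiquinone site, had 212, 282 and 221 T > C CPM in DMSO and 181, 189 and 200 in C646, the smallest change in the complex with −0.33 ± 0.13 (adjusted p = 0.0398, edgeR).

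In complex IV, cytochrome c oxidase, 4 of 11 tested subunits were called lower, with a median of −0.64 (0.20 with TMM applied to T > C reads), against 33% and −0.83 over all tested genes. COX5A, which joins the oxidase early in assembly together with COX4, had 31.1, 29.3 and 25.6 T > C CPM in DMSO and 8.86, 7.35 and 5.95 in C646. Every C646 value was under the lowest DMSO value by a wide margin, with a log2 fold change of −1.96 ± 0.21 (adjusted p = 1.16e-08, edgeR). COX6B1, on the side of the intermembrane space, had 26.5, 25.2 and 26.3 in DMSO and 14.2, 10.5 and 4.66 in C646. Its DMSO libraries were close to each other and its C646 libraries spread widely below them, with −1.43 ± 0.25. COX4I1 had −1.17 ± 0.19 and COX7B had −1.08 ± 0.21, and the call of COX4I1 was lost with all filtered reads as library size (−0.96) and with TMM of T > C reads (−0.33), which also ended that of COX6B1 (−0.58). The call of COX7B was not followed through the alternatives. COX7A2 and COX7A2L, a subunit and a factor that links complexes III and IV, stood highest with −0.27 ± 0.18 and 0.13 ± 0.32, neither past the test, and COX6A1 and COX8A had −0.64 ± 0.18 and −0.57 ± 0.18.

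In complex V, the ATP synthase, 7 of 17 tested subunits were called lower, with a median of −0.88 (−0.04 with TMM applied to T > C reads). Of the 5 subunits of the catalytic F1 head and its central stalk, 4 were called lower, against 33% of all tested genes, and the remaining subunit had the highest change of all members. ATP5F1D, the δ subunit of the central stalk, had 1.58, 4.16 and 4.04 T > C CPM in DMSO and 0.265, 0.245 and 0.198 in C646. The groups were far apart, but each C646 value rests on 2 T > C reads, and the log2 fold change was −3.71 ± 0.66 (adjusted p = 3.15e-05, edgeR). ATP5F1B, the β subunit with the catalytic sites, had 51.0, 52.7 and 53.7 in DMSO and 24.3, 20.6 and 19.6 in C646, a tight pair of groups with −1.29 ± 0.17. ATP5F1E had −1.22, an uncertain value since its 3′ UTR shares bases with a neighbouring gene, and ATP5F1A, the α subunit, had −1.03 ± 0.20 and fell under the fold limit without C646 replicate 1, DMSO replicate 1 or DMSO replicate 2 (−0.96, −0.96 and −0.97), with all filtered reads as library size (−0.82) and with TMM of T > C reads (−0.19), which also ended the call of ATP5F1B (−0.45). The call of ATP5F1E was not followed through the alternatives.

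ATP5F1C, the γ subunit that turns inside the head, was the only member with all C646 libraries above all DMSO libraries in T > C reads. It had 47.8, 40.9 and 58.7 T > C CPM in DMSO and 83.5, 93.7 and 107 in C646. Its log2 fold change of 0.95 ± 0.16 (adjusted p = 1.53e-05, edgeR) was past the p-value threshold but just under the fold limit, and it exceeded the limit without C646 replicate 1 (1.04) or DMSO replicate 3 (1.10) and with scaling by all filtered reads (1.16) or by TMM of T > C reads (1.78). In all reads it had 112, 109 and 150 CPM in DMSO and 222, 266 and 271 in C646, without overlap. The share of T > C reads was 39.8% in DMSO and 37.5% in C646, with overlapping libraries, so that T > C reads and all reads of ATP5F1C rose alike. Whether its T > C reads all came from newly synthesized RNA was not tested.

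Among the peripheral stalk and membrane subunits of complex V, 3 of 9 tested were called lower, beside 33% of all tested genes, and with TMM of T > C reads the calls of ATP5MK and ATP5PF were lost. ATP5MK had −1.70 ± 0.32, ATP5PF, the coupling factor of the peripheral stalk, had −1.37 ± 0.22, and ATP5ME had −1.23 ± 0.23. The call of ATP5ME was not followed through the alternatives. ATP5PD, another subunit of the peripheral stalk, had −0.32 ± 0.29 and overlapping groups.

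**Figure D3:**
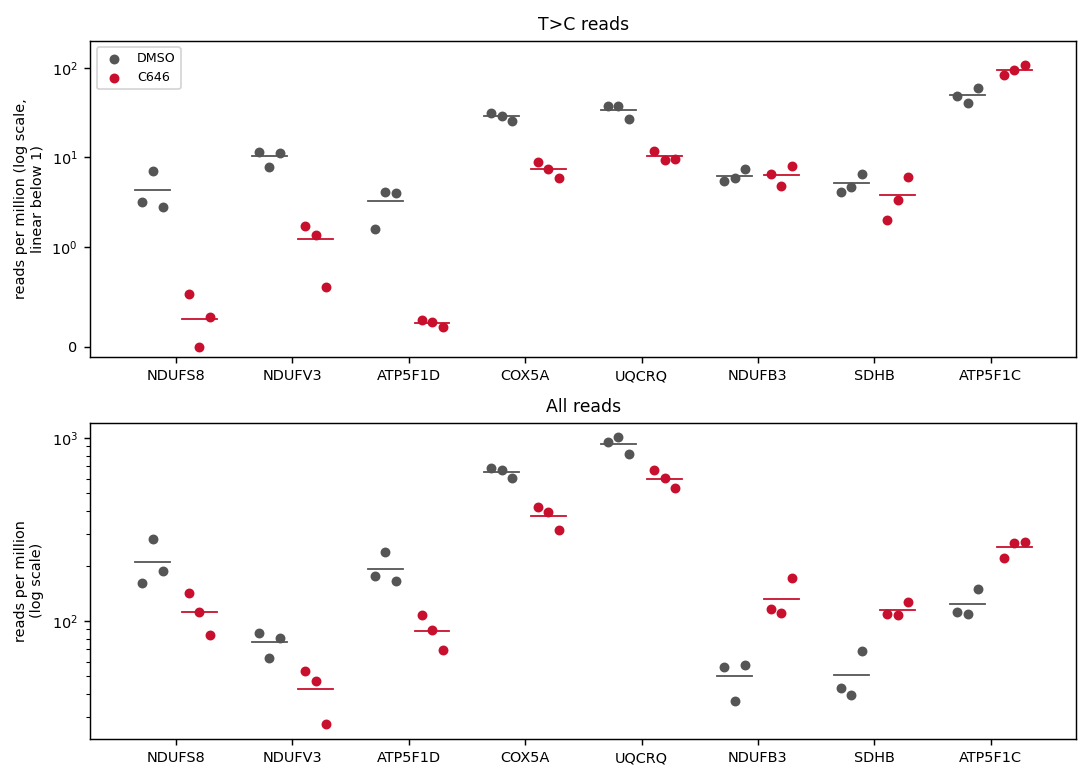
T > C reads (top) and all reads (bottom) in CPM (y axes, log scale, linear below 1 at the top) of 8 subunits (x axis), with 1 point per library, 3 in DMSO (grey) and 3 in C646 (red), and lines at the means. NDUFS8, NDUFV3, ATP5F1D, COX5A and UQCRQ are lower in C646 in both panels, NDUFB3 and SDHB overlap at the top and are higher in C646 at the bottom, and ATP5F1C is higher in both.

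In all reads, 1 of 75 tested members (1.33%) was called lower and 3 (4%) were called higher. Over the 10851 genes tested in all reads, 1.88% were called lower and 5.89% higher. The changes were small but mostly in 1 direction, since 58 members lay below 0 and the median was −0.23, against −0.0030 over all tested genes, and with scaling by all filtered reads both moved up, to −0.02 and 0.20, with 40 members below 0. At an adjusted p of at most 0.05 with no fold limit, 29 members (38.7%) were lower, against 14.6% of tested genes, and 8 (10.7%) were higher, against 16.8%. The 29 lower members spread over complexes I (14 of 33), III (4 of 9), IV (4 of 11) and V (7 of 18), and complex II held 0 of 4. The members' part of all reads was 3.28, 3.52 and 3.28% in the DMSO libraries and 2.84, 2.72 and 2.43% in the C646 libraries, without overlap.

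The member called lower in all reads was ATP5F1D, with 176, 239 and 165 CPM in DMSO and 108, 89.2 and 69.1 in C646. Its groups did not overlap, and the log2 fold change was −1.12 ± 0.18 (adjusted p = 0.000535, edgeR). The count of 1 depended on single libraries, since it was 0 without DMSO replicate 2 or C646 replicate 3, 3 without DMSO replicate 1 or DMSO replicate 3, and 6 without C646 replicate 1. NDUFS8 (−0.90), NDUFV3 (−0.85), NDUFB11 (−0.94), NDUFA13 (−0.98) and COX6B1 (−0.92) stood next to it, under the fold limit.

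NDUFB3, SDHB and ATP5F1C were the members called higher in all reads. NDUFB3, a small accessory subunit of the membrane arm of complex I, had 56.5, 36.6 and 57.2 CPM in DMSO and 117, 111 and 171 in C646. All C646 libraries were above all DMSO libraries, with a log2 fold change of 1.40 ± 0.20 (adjusted p = 0.000195, edgeR). In T > C reads the same gene had 5.48, 5.82 and 7.41 CPM in DMSO and 6.48, 4.78 and 7.94 in C646, with overlapping groups and a log2 fold change of 0.05 ± 0.29. SDHB had 43.2, 39.4 and 68.8 CPM in DMSO and 110, 108 and 127 in C646. Again the groups were apart, with 1.19 ± 0.19 (adjusted p = 0.000479, edgeR), while its T > C reads, 4.11, 4.71 and 6.60 CPM in DMSO and 1.98, 3.31 and 6.05 in C646, overlapped. ATP5F1C had 1.03 ± 0.15, and fell just under the fold limit without DMSO replicate 1, DMSO replicate 2, C646 replicate 2 or C646 replicate 3 (0.95 to 0.99).

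SDHD (1.19 ± 0.34), ATP5PD (0.90 ± 0.19), NDUFC1 (0.62 ± 0.14), NDUFB5 (0.57 ± 0.14) and COX7A2L (0.47 ± 0.13) were higher in all reads at an adjusted p of at most 0.05 without being called, SDHD and COX7A2L for an adjusted p over 0.01 and the other 3 for the fold limit. Of the 8 members that were higher at this threshold, 7 did not pass it in T > C reads and ATP5F1C did. SDHD was called higher in all reads with DESeq2 (adjusted p = 0.0034), with all filtered reads as library size, with no filter, with the replicate block and without C646 replicate 1 (1.47), and in T > C reads with TMM of these reads (1.76). SDHD was at low counts, with 14.2, 7.76 and 8.62 CPM in DMSO and 13.2, 18.5 and 38.1 in C646, where its groups overlapped.

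**Figure D4:**
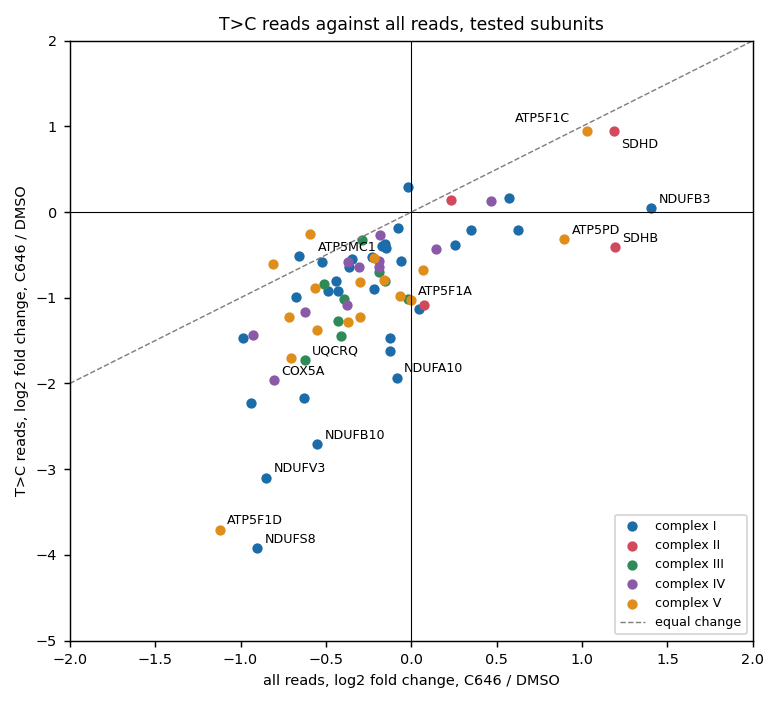
Log2 fold change (C646 over DMSO, 3 libraries each) of T > C reads (y axis) against that of all reads (x axis) for the 72 tested subunits, 1 point per gene, coloured by complex, with a dashed line at equal change. Most points lie in the lower left and below the line, NDUFB3, SDHB and ATP5PD lie at the right near a T > C change of 0, and ATP5F1C lies close to the line at the upper right; the T > C scaling matters here, since TMM applied to T > C reads moves the median of all tested genes from −0.83 to 0.01.

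The odds that a read of a gene carried T > C conversions, which need no scaling between libraries, were called lower in 20 of 72 members (27.8%) and higher in 0. Over all 7722 tested genes, 38.3% were called lower and 0.79% higher. The median log2 fold change of the odds was −0.55 over the members and −1.0 over all tested genes, and 20 members lay below the latter value. At an adjusted p of at most 0.05 with no fold limit, 42 members (58.3%) were lower, against 60.7% of tested genes, and 1 (1.39%) was higher, against 1.68%. By complex, 10 of 31 subunits were called lower in complex I, 2 of 4 in complex II, 3 of 9 in complex III, 1 of 11 in complex IV and 4 of 17 in complex V.

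Called lower in the odds and in T > C reads were 16 members, and 4 were called in the odds alone, namely NDUFV1, NDUFB3, SDHB and ATP5PD. The T > C share of NDUFB3 was 9.70, 15.9 and 12.9% in DMSO and 5.55, 4.32 and 4.64% in C646. That of SDHB was 9.51, 11.97 and 9.59% in DMSO and 1.81, 3.06 and 4.75% in C646, and that of ATP5PD was 6.14, 7.66 and 6.14% in DMSO and 2.16, 3.36 and 2.84% in C646. In all 3 of them the DMSO and C646 shares were apart, and the log2 fold changes of the odds were −1.495, −1.76 and −1.29. The 9 members called in T > C reads alone, such as COX6B1, COX4I1, ATP5F1B and UQCR10, had smaller changes of the odds (−0.94 in ATP5F1B, −0.54 in COX4I1). The odds of UQCRH (−1.06) and ATP5MK (−1.05) fell under the fold limit without DMSO replicate 3 or C646 replicate 3, and those of ATP5MK also with 1 UTR entry per gene (−0.898). The call of NDUFV1 in the odds was lost without DMSO replicate 1, DMSO replicate 3, C646 replicate 2 or C646 replicate 3.

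**Figure D5:**
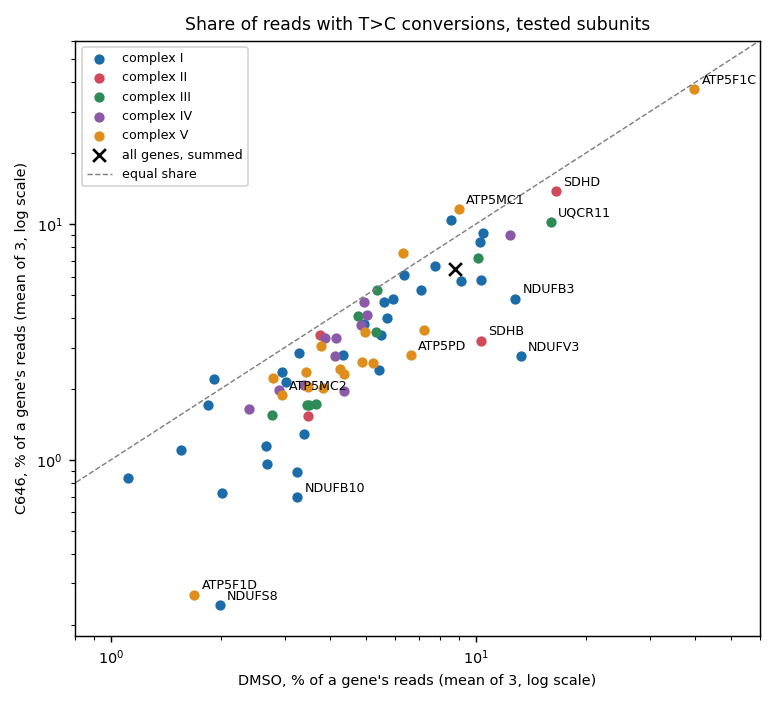
Share of reads with T > C conversions in C646 (y axis) against DMSO (x axis), both % of the reads of a gene as means of 3 libraries on log scales, for the 72 tested subunits coloured by complex. The cross is the sum over all genes (8.79% in DMSO, 6.48% in C646) and the dashed line marks equal shares; NDUFS8 and ATP5F1D lie lowest, and ATP5MC1, NDUFB4, ATP5MF and NDUFB2 lie above the line.

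Summed over the reads of all tested members, the T > C share was 4.85% ± 0.0555 (SD, n = 3) in DMSO and 3.95% ± 0.214 in C646, a ratio of 0.814, while it was 8.79% ± 0.0637 and 6.48% ± 0.203 over all genes, a ratio of 0.737. In DMSO and C646 it was 4.33 and 3.47% in complex I, 4.72 and 3.08% in complex II, 6.06 and 4.90% in complex III, 4.06 and 3.14% in complex IV and 4.86 and 4.15% in complex V, and in each complex the libraries of the groups did not overlap. In CPM, the T > C reads summed over the tested members had a ratio of C646 to DMSO of 0.650, against 0.745 over all genes. For all reads the ratios were 0.801 and 1.01. Abundant members weigh most in these sums. The median of the members' shares gave a log2 ratio of −0.70 where the summed reads gave −0.30, and conversions per covered T gave −0.50.

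The paralogues ATP5MC1, ATP5MC2 and ATP5MC3 encode the same mature subunit c of the membrane ring with different targeting sequences. In DMSO the T > C share was 8.99% ± 1.39 for ATP5MC1, 2.95% ± 0.288 for ATP5MC2 and 4.96% ± 0.260 for ATP5MC3. ATP5MC1 had 29.8, 49.6 and 40.7 T > C CPM in DMSO and 30.4, 33.1 and 36.4 in C646, with overlapping groups and a log2 fold change of −0.26 ± 0.18. ATP5MC2 (−0.79 ± 0.19) and ATP5MC3 (−0.82 ± 0.18) did not overlap between groups, at adjusted p = 0.000948 and 0.000346 (edgeR), and stayed under the fold limit. With TMM on the T > C reads all 3 stood above 0, at 0.57, 0.05 and 0.02. In all reads ATP5MC1 had −0.59 ± 0.14 (adjusted p = 0.00543, edgeR), against −0.16 ± 0.15 and −0.30 ± 0.13, and it was the member whose odds of a T > C read were higher at an adjusted p of at most 0.05 (0.40 ± 0.17, adjusted p = 0.0491, edgeR). The differences between the paralogues were not tested.

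Of 5 tested subunits and carriers outside the symbol rule, 4 were called lower in T > C reads, against 33% of all tested genes, with a median of −1.06. There cytochrome c (CYCS) had −1.38, cytochrome c1 of complex III (CYC1) −1.22, the acyl carrier protein NDUFAB1 −1.06 and the complex IV subunit NDUFA4, listed under the symbol COXFA4, −1.01, all of them called, and DMAC2L had −0.78 and was not called. None of them was called in all reads.

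Of 59 assembly factors of the complexes, 52 were tested in T > C reads, 21 were called lower and 0 higher, with a median of −1.04, beside 33% lower, 2.97% higher and −0.83 over all tested genes. The lowest were COA7 (−2.94), the complex III factor UQCC3 (−2.91), the ATP synthase factor ATPAF2 (−2.80), and the copper chaperone of complex IV SCO2 (−2.47). Of 22 genes for the expression of mitochondrial DNA, 18 were tested, 7 were called lower and 0 higher, with a median of −0.68, among them TBRG4 (−2.72), the helicase TWNK (−2.34) and the elongation factor TEFM (−1.97), while the packaging factor TFAM had −0.61 and was not called. In all reads 3 of 57 tested assembly factors were called lower and 2 higher. Of the 22 genes for mitochondrial DNA expression, all tested there, 4 were called lower and 5 higher, beside 1.88% and 5.89% of all tested genes.

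Of 12 nuclear regulators of respiratory genes, 10 were tested, 7 were called lower and 0 higher, with a median of −1.38, beside 33% lower, 2.97% higher and −0.83 over all tested genes. ESRRA, a nuclear receptor, had −2.84, the coactivators PPRC1 and PPARGC1B had −2.60 and −2.56, MYC had −2.46, and NRF1 had −1.34. In all reads, where 1.88% of tested genes were called lower and 5.89% higher, MYC (−1.71) and PPRC1 (−1.19) were called lower and GABPA, the DNA-binding subunit of GABP, was called higher (1.76), while its T > C reads had 0.97 and were not called. PPARGC1A was not tested for lack of reads.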

How the data were processed

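SLAM-seq libraries of MOLM-13 cells in DMSO or C646 (3 replicates each, grouped by their labels) were analysed. The authors used SLAM-Dunk (v0.4.1, GRCh38) on 3′ end libraries and deposited, for each 3′ UTR entry, raw counts of reads, of T > C reads, of conversions and of multimapped reads. The deposited signal is the read coverage on T positions, and the deposited CPM is scaled by all filtered reads and served to recover these. The study tested reads with 2 or more conversions, whereas the T > C reads here are those the deposited tables count. Conversions per T are the deposited conversions divided by the coverage on T.

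Counts were summed over the entries of each Entrez identifier (25310 of 25420 matched to a symbol). The T count of the most-read entry of each of the 84 members equalled that of GRCh38 and GENCODE places one of its own UTRs there. Differential expression was tested with edgeR 4.0.16 (filterByExpr, estimateDisp, glmQLFit, glmQLFTest, Benjamini-Hochberg adjustment over all tested genes) in R 4.3.3. T > C reads were scaled by TMM totals of all reads, and CPM values use the same totals. The odds were tested by splitting the reads of each library into those with and without conversions and testing how treatment shifted this split. Standard errors were derived from the F statistics. The models were tested on simulated data. DESeq2 1.42.0, other scalings, filters and thresholds, a replicate block and leaving out single libraries were the alternatives.

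Members and gene lists were chosen with earlier results of these data known, so that lists are described by counts and medians without a test. The 39 genes followed through the alternatives were, per complex, the 3 lowest and 2 highest in T > C reads, catalytic or anchor subunits, paralogue sets and members called in all reads. The values of 1 member are not reported here, and it stays in the counts. The limit given for a count of 0 T > C reads covers counting error only, and PCR reads without molecular identifiers are not independent molecules. C646 replicate 3 lists 0 T bases for its UTRs, and the other tables supplied them. Sequences are from RefSeq (GRCh38.p14).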

Additional observations from a re-analysis of the deposited data

How the results depend on the processing

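The values rest on 3 libraries per group and, for the lowest members, on few T > C reads. With TMM on the T > C reads themselves, 7 members were called lower and 3 higher (7.6% and 9.14% of 7847 tested genes), 34 members lay below 0 in place of 65, and the median log2 fold changes were 0.038 over all members and 0.18, 0.69, −0.18, 0.20 and −0.041 in complexes I to V. Among the genes followed, the T > C values of ATP5MC1 (0.571), ATP5MC2 (0.049), ATP5MC3 (0.021), COX6A1 (0.201), COX7A2 (0.567), COX8A (0.259), SDHB (0.406), UQCRB (0.508) and UQCRFS1 (0.143) then turned above 0. Among the same genes, the T > C calls of ATP5F1A, ATP5F1B, ATP5MK, ATP5PF, COX4I1, COX6B1, NDUFA9, SDHA, UQCRC1, UQCRH and UQCRQ were then lost. This list is not complete, since 7 members were called lower in place of 25. Called members that were not followed singly were NDUFB11, NDUFS6, NDUFA10, NDUFA7, UQCR10, UQCRC2, COX7B, ATP5F1E and ATP5ME. With all filtered reads as library size, 17 members were called lower and 1 higher in T > C reads, against 24.3% and 3.96% of all tested genes. In all reads 0 were called lower and 5 higher, against 0.829% and 9.34%. The T > C medians were −0.61 over the members, −0.62 over all tested genes and, by complex, −0.43, 0.076, −0.80, −0.43 and −0.68. In all reads ATP5F1A (0.206), ATP5MC2 (0.041), COX6A1 (0.014), COX7A2 (0.019), COX8A (0.0069), NDUFA9 (0.085), NDUFB4 (0.192), NDUFV1 (0.084) and UQCRFS1 (0.016) turned above 0. These shifts follow from the library sizes alone. With a mean of at least 50 T > C reads, 14 of 51 members were called lower and the median was −0.65, against 36.5% and −0.73 over 2843 tested genes. With no filter the median of complex I was −0.86. At an adjusted p of at most 0.05 with no fold limit 49 members were lower and 1 higher in T > C reads, 29 and 8 in all reads, and 42 and 1 in the odds, and at 0.01 with no fold limit 39 and 1, 19 and 6, and 36 lower in the odds. For 0.01 with no fold limit the shares of all tested genes were not counted. Without members with shared reads the median of complex II was 0.267, and the log2 ratio of its T > C share was −1.23 and that of complex III −0.27. The log2 ratio of the T > C share was −0.50 over all members by conversions per T, −0.53 in complex I, −0.43 in complex III, −0.57 in complex IV and −0.51 in complex V, and by the median share it was −0.70 over all members, −0.89, −1.11 and −0.55 in complexes I to III and −0.82 in complex V. Reads of 1 entry per gene gave 0.0019 for ATP5F1A in all reads, and subtracting multimapped reads gave −0.35 for SDHA, and the cause was not tested. Leaving out 1 library gave 21 to 27 members lower and 0 to 1 higher in T > C reads, 0 to 6 lower and 2 to 4 higher in all reads, and 17 to 20 lower in the odds. Of all tested genes, 24.9 to 31.8% were then called lower and 2.52 to 3.15% higher in T > C reads. In all reads these shares were 1.08 to 2.89% and 4.01 to 6.56%, and 26.4 to 36% were called lower in the odds. The medians then ranged from −0.86 to −0.71 over all members, −0.86 to −0.65, −0.41 to 0.019, −1.12 to −0.88, −0.72 to −0.56 and −0.999 to −0.828 in complexes I to V, and the log2 ratio of the T > C share of complex III from −0.34 to −0.27. Signs also turned for ATP5F1A (−0.057 to 0.078), COX8A (−0.389 to 0.0038), NDUFA9 (−0.236 to 0.051), NDUFB4 (−0.221 to 0.191), NDUFV1 (−0.219 to 0.071) and SDHC (−0.0027 to 0.462) in all reads, COX7A2L (−0.444 to 0.379), NDUFB3 (−0.146 to 0.219) and SDHC (−0.067 to 0.349) in T > C reads, and SDHC (−0.314 to 0.014), SDHD (−0.662 to 0.196) and UQCRB (−0.098 to 0.023) in the odds. The labels do not say whether a replicate number marks anything shared. Deviations of samples with the same number correlated by 0.030 to 0.066 (mean 0.046, other pairs −0.023) over 2843 genes in T > C reads and by −0.0014 to 0.231 (mean 0.122, other pairs −0.064) over 8851 genes in all reads, so that not every pair exceeded 0.1 and the samples were not treated as paired. With the replicate block, 26 members were called lower and 0 higher in T > C reads, 2 and 4 in all reads and 20 and 0 in the odds, and NDUFB4 had 0.019 in all reads. The shares of all tested genes were 33.5% and 2.93% in T > C reads, 2.14% and 6.45% in all reads, and 35.8% and 0.738% in the odds.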
